A study of Mus musculus with 10 samples.

Results

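Genes of blood vessel endothelium, of vessel growth and of lymphatic vessels were followed in the infrarenal aorta of male C57BL/6J mice, 10 weeks old, 7 days after elastase or saline infusion. The members are 43 named genes of 35527 distinct gene names on the array, chosen by name and kept in 3 groups: 25 pan-endothelial genes, 13 genes of sprouting, VEGF and angiopoietin signalling, and 5 lymphatic genes. In the PPE group the ligated aortic segment was filled for 5 min at 100 mmHg with type I porcine pancreatic elastase (PPE, 1.5 U/mL in saline), an elastin-digesting enzyme after which an abdominal aortic aneurysm (AAA) forms. Sham mice had the same procedure with saline alone, so the ligatures, the aortotomy and its repair are shared by both groups. Each group held 5 mice, and each array carried unpooled RNA (500 ng) from 1 aorta, labelled with Cy5, against a Cy3-labelled universal mouse reference, a pool of RNA from mouse cell lines. All levels below are log2 ratios of aorta over reference for 1 probe, so they cannot be compared between genes, and a difference is PPE minus sham on that log2 scale.

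Endothelial cells line every vessel and are held together by junction proteins such as VE-cadherin. New vessels sprout when VEGF ligands bind the receptors Flt1 and Kdr, with neuropilins as co-receptors, while angiopoietins act through Tek to steady or loosen the vessel wall. Lymphatic endothelium is specified by the transcription factor Prox1 and grows towards Vegfc and Vegfd through Flt4. In the normal mouse aorta, endothelium is a single inner layer, with further small vessels in the adventitia and the surrounding fat. RNA was taken from whole tissue, so fewer endothelial cells and less RNA per endothelial cell cannot be told apart.

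Of the 43 members, 42 were tested, since a probe of theirs had red signal clearly over background on 5 or more of the 10 arrays, and 39 had it on all 10. At an adjusted p under 0.01, 7 members were higher and 1 was lower in PPE (16.7% and 2.38% of the 42), against 13.9% higher and 9.96% lower among all 22520 gene names tested. Sham and PPE values did not overlap in 7 members (16.7%), against 25.5% of all names. The members as a whole were thus called higher at a share near that of all genes. Those higher were podoplanin (Pdpn), the apelin receptor and its ligand (Aplnr, Apln), the neuropilin Nrp2, the tip cell product Esm1, the transcription factor Fli1 and the surface protein Ecscr, and the one lower was the ligand Vegfb. The median difference was 0.19 over the 25 pan-endothelial genes, 0.19 over the 13 sprouting and ligand genes, 0.52 over the 4 lymphatic genes tested and 0.02 over all names tested. With the LogRatio, the ratio that the scanner's software computed for each spot, in place of the background correction and loess used here, the pan-endothelial median turned to -0.11, with all names at -0.03. Of the 42 members, 14 changed sign with it, 11 of them pan-endothelial and 0 among the 8 called, and 4 were higher and 2 lower past the threshold. The authors' series matrix gave the same counts, with a pan-endothelial median of -0.13. With arrays scaled by their median rather than by loess, which puts the median difference of all names at 0.41, 1 member (Pdpn) was higher and 0 were lower, and higher genes made up 98.1% of all calls in place of 58.2%.

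**Figure D1:**
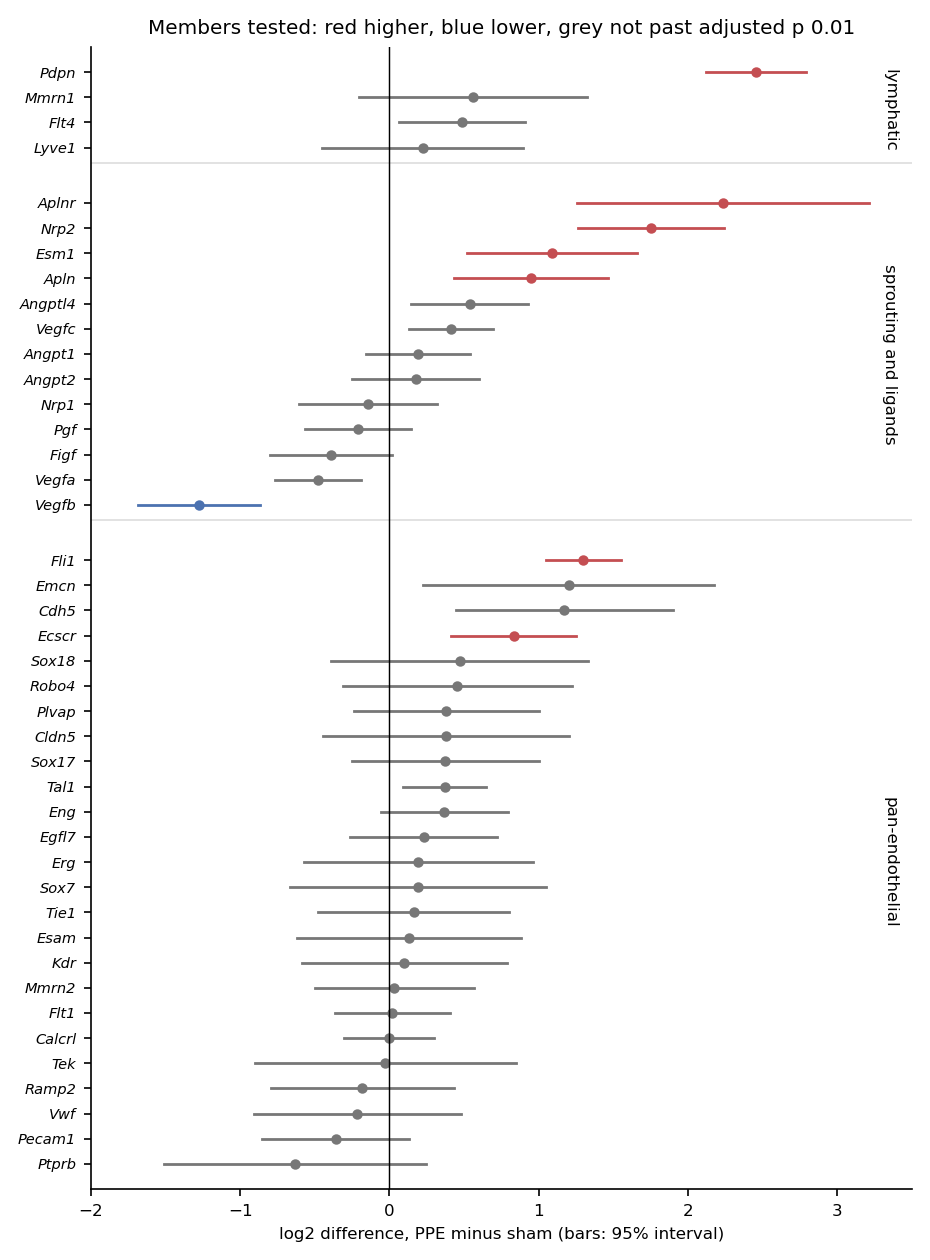
Differences between groups for the 42 members tested, on the log2 scale (PPE minus sham, horizontal axis), with points for the estimates and bars for their 95% intervals, sorted within the 3 groups. Pdpn (2.46), Aplnr (2.23) and Nrp2 (1.75) lie farthest to the right and Vegfb (-1.28) farthest to the left, and 23 of the 25 pan-endothelial genes are grey, that is, not past the threshold.

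The promoter sequences of 3 called members are shown, namely the pair with the lowest adjusted p-values among the higher members with 1 start site in the RefSeq promoter table, and the member that was lower. They are the 250 bases before the RefSeq start site on GRCm38.p6, read 5′ to 3′ on the strand of the gene: chr4:143299565-143299814 (minus strand) for Pdpn, chr1:62703067-62703316 (plus strand) for Nrp2 and chr19:6987652-6987901 (minus strand) for Vegfb. Capitals mark matches, on either strand, to 4 motifs searched by their letters. These are ACGTG, 1 form of the hypoxia response core, the AP-1 motif TGANTCA, the ETS core CGGAAG and the SOX core AACAAT. The form GCGTG was not searched or marked. Its letters occur in the Nrp2 and Vegfb windows and in that of Esm1, which is not shown.
Pdpn: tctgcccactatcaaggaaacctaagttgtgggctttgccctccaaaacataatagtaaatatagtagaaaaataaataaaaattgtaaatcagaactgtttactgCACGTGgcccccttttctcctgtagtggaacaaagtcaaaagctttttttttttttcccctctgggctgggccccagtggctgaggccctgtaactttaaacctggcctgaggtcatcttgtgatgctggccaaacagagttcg
Nrp2: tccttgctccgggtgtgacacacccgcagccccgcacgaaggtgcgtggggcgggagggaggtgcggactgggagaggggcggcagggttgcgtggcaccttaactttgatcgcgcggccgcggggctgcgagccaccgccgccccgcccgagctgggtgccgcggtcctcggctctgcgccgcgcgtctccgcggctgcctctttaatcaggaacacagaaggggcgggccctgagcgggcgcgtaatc
Vegfb: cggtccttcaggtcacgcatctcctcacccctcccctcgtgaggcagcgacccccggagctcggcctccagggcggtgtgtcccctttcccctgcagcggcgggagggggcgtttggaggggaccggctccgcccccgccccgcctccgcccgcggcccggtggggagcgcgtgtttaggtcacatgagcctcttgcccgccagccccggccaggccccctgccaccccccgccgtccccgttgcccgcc
The capitals in the Pdpn promoter are ACGTG read on both strands of the same bases, so the 2 matches overlap. These letters occur in 16.6% of the 32851 windows of the same length in the RefSeq table. No other match to the letters searched was found in these windows or in those of Apln and Esm1, which also had 1 start site in the table. The windows of the remaining called members, Aplnr, Fli1 and Ecscr, were not examined singly. AP-1 letters occur in 6.75% of all windows, ETS letters in 13.6% and SOX letters in 9.42%. The Pdpn window is 43.2% G or C, the Nrp2 window 72.4% and the Vegfb window 76.4%, against a median of 52.4%.

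Pan-endothelial genes were examined to ask whether endothelial transcripts as a class were more or less abundant in aneurysmal tissue. Of the 25, 2 were higher (Fli1 and Ecscr), none was lower, and 23 were not past the threshold, with differences from -0.63 (Ptprb) to 1.20 (Emcn) among the latter. By limma at an unadjusted p under 0.05, 5 of the 25 were higher and 0 were lower, against 24.8% higher and 18.8% lower among all names. The mean log2 ratio over the 25 genes was 2.84 ± 0.37 (SD, n = 5) in sham and 3.12 ± 0.44 (SD, n = 5) in PPE. It lay between 2.44 and 3.39 on the sham arrays and between 2.68 and 3.64 on the PPE arrays, so the groups overlapped.

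The spread among mice was wide for these genes. The median standard error of a difference was 0.29 over the 25 pan-endothelial genes, against 0.15 over all names tested. The values also ran with the slides that held the arrays. Slide 1, also scanned on a day of its own, held sham 1, PPE 1 and PPE 2, and slide 2 held sham 2, sham 3, PPE 3 and PPE 4, while sham 4, sham 5 and PPE 5 were each on another slide. The paper's methods state that the arrays shared a print run and a day of hybridization. Sham 1 was the highest sham array in 19 of the 25 genes, against 27.6% of the 22489 genes with a value on all arrays. PPE 1 and PPE 2 were the highest pair of PPE arrays in 17 of the 25, against 22.5% of all genes. The same 3 arrays had the largest shares of spots whose red signal exceeded background clearly (62.1%, 65.8% and 65.3%, against 37.6% to 57.8% on the others). The part of the slide or of this signal in the values was not tested. Without the 3 arrays of slide 1, Pdpn, Nrp2, Fli1 and Vegfb were still called, and Aplnr, Apln, Esm1 and Ecscr were not.

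**Figure D2:**
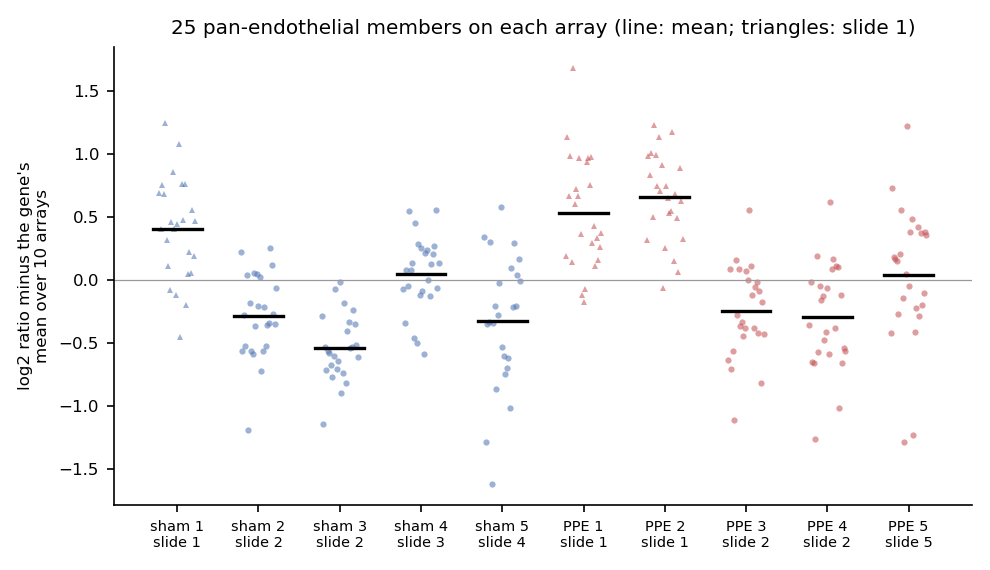
Log2 ratio of each of the 25 pan-endothelial genes on each array, as the distance from that gene's mean over the 10 arrays (vertical axis), with sham in blue, PPE in red, triangles for slide 1 and black lines for the mean of the 25. The 3 arrays of slide 1 stand above 0 in both groups, and PPE 3 and PPE 4 lie at the height of sham 2 and sham 5.

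Junction and surface genes included the most used endothelial markers. Pecam1, the junction protein CD31, measured 2.95, 2.48, 1.98, 2.19 and 2.60 on sham arrays 1 to 5. On PPE arrays 1 to 5 it measured 2.45, 2.58, 1.62, 1.90 and 1.84. The groups overlapped, and the difference of -0.36 (SE 0.22, adjusted p = 0.25) did not pass, with a 95% interval from -0.85 to 0.13.

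Cdh5, which encodes VE-cadherin, measured 5.38, 4.41, 3.83, 4.64 and 3.69 on the sham arrays and 6.11, 5.96, 5.06, 4.96 and 5.71 on the PPE arrays. The sham array of slide 1 was the only sham array above any PPE array. The difference of 1.17 (SE 0.33, adjusted p = 0.0167) was 2.25-fold and fell short of the threshold, but passed with slide as a fixed block (0.80, adjusted p = 0.00634), with slide 1 alone as the block (0.98, adjusted p = 0.0048) and without sham 1 (1.42, adjusted p = 0.00353). It was 0.28 (adjusted p = 0.664) with the LogRatio and with the series matrix, and 1.15 (adjusted p = 0.0622) without background subtraction.

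Ecscr, a surface protein of endothelial cells involved in their migration, was the junction and surface gene that passed. It measured 2.28, 1.80, 1.59, 1.90 and 2.15 on the sham arrays and 3.09, 3.11, 2.45, 2.31 and 2.92 on the PPE arrays. Every PPE array lay above every sham array, with 0.03 between PPE 4 and sham 1. The difference was 0.83 (SE 0.19, adjusted p = 0.00527), or 1.78-fold, and it missed the threshold without any 1 of sham 2, sham 3, sham 4, PPE 1, PPE 2 or PPE 5, with adjusted p-values up to 0.016. With the LogRatio it was 0.63 (adjusted p = 0.0296).

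Emcn, an endothelial sialomucin of veins and capillaries, had the largest difference in the pan-endothelial group after Fli1, at 1.20 (SE 0.44, adjusted p = 0.0562), with an interval of 0.22 to 2.17. Ptprb, the phosphatase that restrains Tek, lay at the other end with -0.63 (SE 0.40, adjusted p = 0.259). Both passed with slide as a fixed block, Emcn at 1.09 (adjusted p = 0.00277) and Ptprb at -0.93 (adjusted p = 0.00459), in opposite directions. With the LogRatio and with the series matrix the direction of Emcn turned, to -0.34 (adjusted p = 0.629), while Ptprb was -0.57 (adjusted p = 0.346). Esam, Cldn5, Plvap and Robo4, which serve junctions, fenestrae and vessel guidance, had differences from 0.13 to 0.46, none past the threshold.

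The 4 receptor tyrosine kinases of the pan-endothelial group are receptors for VEGF ligands and angiopoietins. For the probes used, they had differences from -0.03 to 0.16, none past the threshold. Kdr, the main signalling receptor for Vegfa, measured -0.14, 0.03, -0.66, -0.13 and 0.56 on the sham arrays and -0.14, -0.08, -0.40, -0.43 and 1.21 on the PPE arrays. PPE 5 stood far above the other PPE arrays, and the rest lay within the range of sham. The difference was 0.10 (SE 0.31, adjusted p = 0.842), with an interval of -0.59 to 0.79. A second, dimmer Kdr probe gave 1.02 (adjusted p = 0.0677 over all probes).

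Flt1, which binds Vegfa, Vegfb and Pgf and can act as a decoy, measured 1.82, 1.17, 1.36, 1.63 and 0.84 on the sham arrays and 1.20, 1.63, 1.45, 1.31 and 1.33 on the PPE arrays. The PPE values all lay inside the sham range. The difference of 0.02 (SE 0.18, adjusted p = 0.949) had an interval of -0.37 to 0.40, which leaves out a 2-fold change in either direction. Tek, the angiopoietin receptor, differed by -0.03 (-0.90 to 0.85) and its partner Tie1 by 0.16 (-0.48 to 0.80), both with intervals inside a 2-fold change.

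Of the transcription factors, Fli1 passed. This ETS factor is made in endothelium and also in blood cells. It measured 1.09, 0.83, 0.81, 0.96 and 0.80 on the sham arrays and 2.49, 2.20, 2.10, 2.17 and 2.03 on the PPE arrays. The groups did not overlap, with 0.94 between their nearest arrays. The difference was 1.30 (SE 0.11, adjusted p = 6.79e-06), or 2.46-fold, and it passed in every leave-one-out fit.

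Erg, the ETS factor closest to Fli1 in endothelium, differed by 0.19 (-0.58 to 0.96), and the SOX factors of vessel identity, Sox7, Sox17 and Sox18, by 0.19, 0.37 and 0.47. None of these passed, nor did Tal1, a factor of endothelial and blood progenitors (difference 0.37, adjusted p = 0.0397).

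Among co-receptors and secreted products no gene passed. Vwf, the clotting factor stored in endothelial granules, measured 4.89, 4.06, 3.98, 4.89 and 4.37 on the sham arrays and 4.49, 5.22, 3.51, 3.67 and 4.23 on the PPE arrays. The PPE range enclosed the sham range, and the difference was -0.22 (SE 0.32, adjusted p = 0.651). Eng, a co-receptor for TGF-beta ligands, differed by 0.37 (-0.06 to 0.79), and the adrenomedullin receptor parts Ramp2 and Calcrl by -0.18 and 0.00. Calcrl was above background on 4 sham and 2 PPE arrays, where the processing draws log ratios of dim probes towards 0. The matrix-bound Egfl7 and Mmrn2 differed by 0.23 and 0.03.

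**Figure D3:**
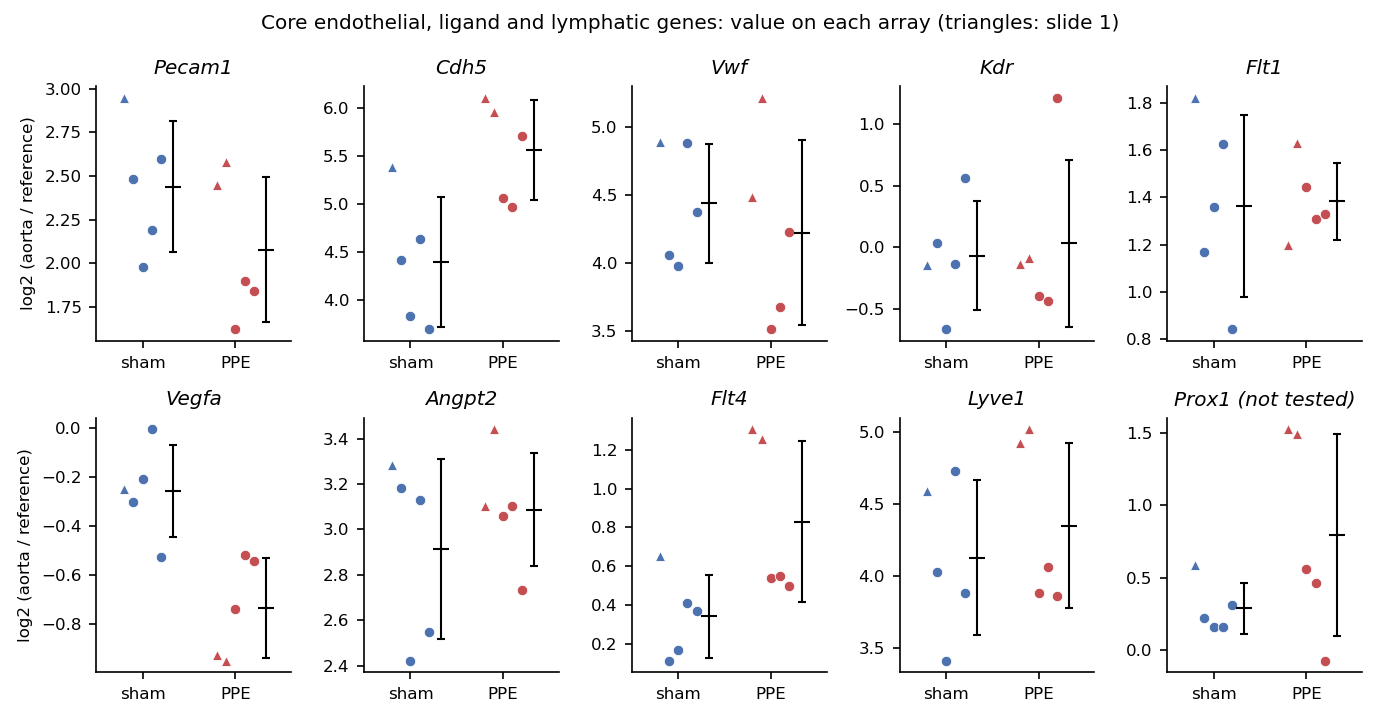
Log2 ratio of aorta over reference (vertical axes, 1 scale per gene) on each of the 5 sham (blue) and 5 PPE (red) arrays for 10 core genes, with black marks for the mean and SD and triangles for slide 1. The groups overlap in each of the 10 panels, and the triangles are the highest of both groups for Pecam1, Cdh5, Vwf, Flt4 and Prox1.

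Further endothelial genes were counted from a separate list. Of 21 tested, 4 were higher and none lower, against 13.9% and 9.96% of all names. The median difference of the list was 0.37. The 3 with the largest differences among those called were Grrp1 (1.56), Cd93 (1.09), a receptor of endothelial and myeloid cells, and Rasgrp3 (0.95), an exchange factor for Ras proteins. The mean of the list ranged from 1.87 to 2.49 on the sham arrays and from 2.14 to 2.76 on the PPE arrays.

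The VEGF ligands were the group in which a member fell. Vegfb, a ligand of Flt1 and Nrp1 that is abundant in heart, muscle and brown fat, measured 0.51, -0.05, 0.28, 0.44 and -0.55 on the sham arrays. On the PPE arrays it measured -1.10, -1.00, -1.14, -1.20 and -1.32. All PPE arrays lay below all sham arrays and within a narrow range, while sham 5 lay below the other sham arrays. The difference was -1.28 (SE 0.19, adjusted p = 2.73e-04), a 2.42-fold decrease, and it passed in every leave-one-out fit, between -1.45 and -1.18.

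Vegfa, the principal ligand of Kdr, measured -0.25, -0.30, -0.21, -0.01 and -0.53 on the sham arrays and -0.93, -0.95, -0.74, -0.52 and -0.54 on the PPE arrays. PPE 4 was level with sham 5, and the other 4 PPE arrays lay below every sham array. The difference of -0.48 (SE 0.13, adjusted p = 0.0145) missed the threshold, but passed with the LogRatio and the series matrix (-0.52, adjusted p = 0.00539 and 0.0054). A second, dimmer Vegfa probe, at chr17:46162376-46162435 on mm9 against chr17:46154387-46154446 for the probe used, gave -1.10 (adjusted p = 0.00331 over all probes).

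No other VEGF ligand passed. Vegfc, the main lymphatic growth factor, differed by 0.41 (adjusted p = 0.0263), Figf, now named Vegfd, by -0.39 (adjusted p = 0.131) and Pgf, placental growth factor, by -0.21 (adjusted p = 0.352). For the probes used, the intervals of all 4 VEGF ligands that did not pass lay inside a 2-fold change. The estimate of the second Vegfa probe (-1.10) lay outside it.

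Markers of other tissues moved between the same groups as Vegfb and Vegfa. Among all names tested, 9.96% were lower and 13.9% higher. Of 8 genes of white and brown fat, 3 were lower in PPE, namely the brown fat genes Ucp1 (-2.94) and Cidea (-2.40) and the fat cell regulator Pparg (-1.15), and none was higher. The mean of the list was 4.70 to 5.73 on the sham arrays and 3.48 to 4.89 on the PPE arrays, with 7 of the 8 genes above background on all arrays. Of 8 smooth muscle genes, 6 were lower, led by Tagln (-2.95), Myocd (-2.66) and Acta2 (-2.48), and the mean of the list fell between 3.22 and 4.38 on the sham arrays and between 1.62 and 2.85 on the PPE arrays. Their part in the Vegfb and Vegfa values was not tested.

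Angiopoietins and Angptl4 did not pass. Angpt2, which loosens vessels and is stored in endothelial cells, measured 3.28, 3.18, 2.42, 3.13 and 2.55 on the sham arrays and 3.10, 3.44, 3.06, 3.10 and 2.73 on the PPE arrays. The ranges overlapped, with a difference of 0.17 (SE 0.19, adjusted p = 0.539) and an interval of -0.25 to 0.60. Angpt1, the Tek agonist made by mural cells, differed by 0.19 (-0.15 to 0.54). Angptl4, a lipase inhibitor induced by fasting and low oxygen, differed by 0.54 (SE 0.18, adjusted p = 0.0351) and passed without sham 1 (0.68, adjusted p = 0.00567).

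Of the 2 neuropilins, 1 passed. Nrp2, a co-receptor for Vegfc and for class 3 semaphorins that is found on veins, lymphatics and some myeloid cells, measured -0.98, -1.70, -1.06, -1.49 and -1.89 on the sham arrays and 0.57, 0.39, 0.50, 0.52 and -0.35 on the PPE arrays. Every PPE array was above every sham array, although PPE 5 lay well below the other 4. The difference was 1.75 (SE 0.22, adjusted p = 9.86e-05), or 3.37-fold, and a second probe gave 1.37 (adjusted p = 4.68e-06 over all probes). Nrp1, the co-receptor for Vegfa on arteries and tip cells, differed by -0.14 (SE 0.21, adjusted p = 0.653), with an interval of -0.60 to 0.32. The difference between the changes of the 2 genes was not tested.

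All 3 members of the tip cell and apelin role were called higher in PPE, against 13.9% of all names tested. None of them was called without the arrays of slide 1, and with the LogRatio only Apln was. The role is a small grouping of members that were chosen with earlier results known. Nrp1, also found on tip cells, is outside it and did not pass (-0.14), and 8 of the 13 sprouting and ligand genes did not. Tip cells lead a vessel sprout, and apelin is the peptide they release onto its receptor on neighbouring endothelium. Aplnr, that receptor, measured 2.07, 0.88, 1.52, 2.27 and 0.47 on the sham arrays and 4.85, 4.07, 3.43, 3.58 and 2.45 on the PPE arrays. The groups did not overlap, and the PPE arrays spanned 2.40 on the log2 scale. The difference was 2.23 (SE 0.45, adjusted p = 0.00224), or 4.70-fold, with the probe above background on 4 sham and 5 PPE arrays. With the LogRatio and with the series matrix it was 1.34 (adjusted p = 0.021) and missed the threshold, as it did without the arrays of slide 1 (1.87, adjusted p = 0.0132).

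Apln, the apelin ligand, measured -2.22, -1.92, -1.68, -1.80 and -1.64 on the sham arrays and -0.40, -1.39, -0.91, -0.32 and -1.49 on the PPE arrays. The groups did not overlap, with 0.15 between PPE 5 and sham 5, and PPE 2 lay close to PPE 5. The difference was 0.95 (SE 0.24, adjusted p = 0.00845), or 1.93-fold, and it missed the threshold without any 1 of the 5 sham arrays or of PPE 1, PPE 3 and PPE 4, with adjusted p-values up to 0.0234.

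Esm1, or endocan, a proteoglycan secreted by tip cells and induced by VEGF, measured -0.70, -0.32, -1.09, -0.72 and 0.26 on the sham arrays and 0.80, 1.16, 0.47, 0.09 and 0.35 on the PPE arrays. Sham 5 lay above PPE 4, so the groups overlapped. The difference was 1.09 (SE 0.26, adjusted p = 0.0067), or 2.13-fold, and it missed the threshold without any 1 of sham 1 to sham 4 or of PPE 1 to PPE 3, with adjusted p-values up to 0.0199. With the LogRatio it was 1.07 (adjusted p = 0.0253).

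**Figure D4:**
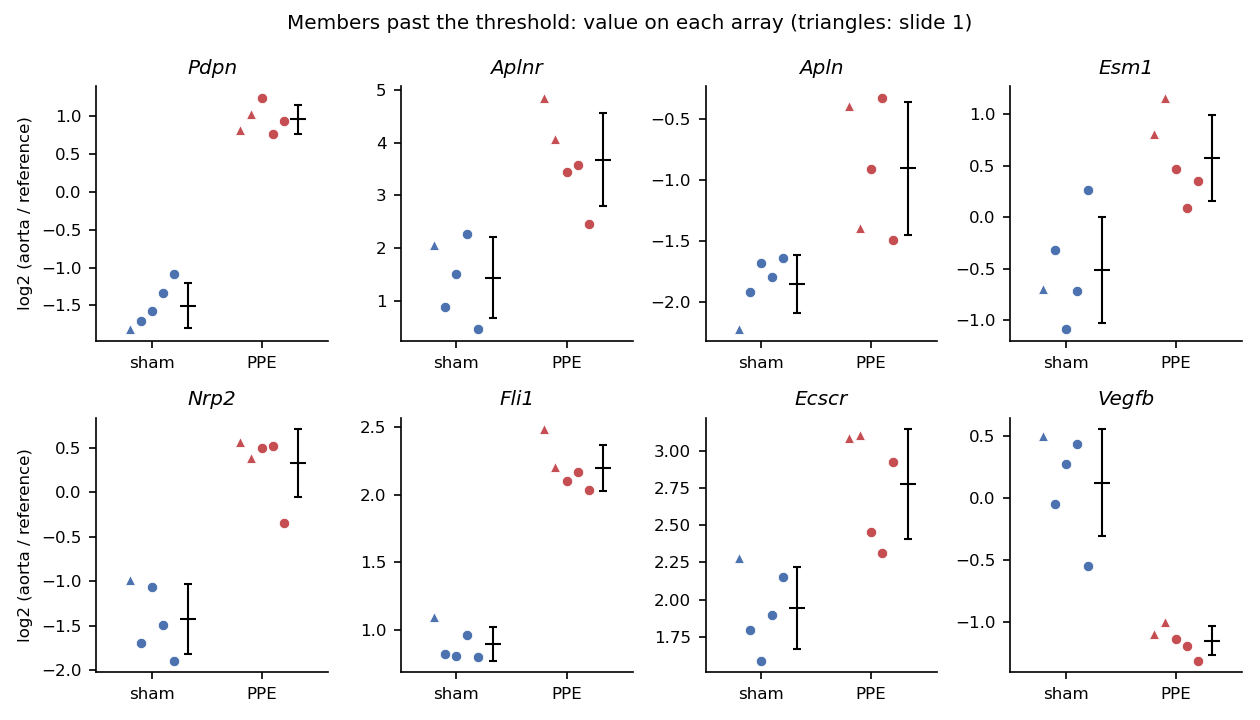
Log2 ratio of aorta over reference (vertical axes, 1 scale per gene) on each of the 5 sham (blue) and 5 PPE (red) arrays for the 8 members past the threshold, with black marks for the mean and SD and triangles for slide 1. Pdpn and Fli1 show the widest gaps relative to their spread, Esm1 is the only panel with overlapping groups, and Vegfb is the only one with PPE below sham.

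Each log ratio was also taken relative to the array's mean over the 25 pan-endothelial genes, which include Fli1 and Ecscr themselves. Of the 8 calls, 5 then stood. On this scale the median difference of all names was -0.26, and 39.0% of all calls were higher. Pdpn was 2.18 (adjusted p = 9.34e-07), Aplnr 1.96 (adjusted p = 1.80e-05), Nrp2 1.47 (adjusted p = 3.11e-04), Fli1 1.02 (adjusted p = 0.00634) and Vegfb -1.55 (adjusted p = 7.29e-05). Esm1 (0.81, adjusted p = 0.0524), Ecscr (0.55, adjusted p = 0.165) and Apln (0.67, adjusted p = 0.174) did not pass on this scale. Within slides 1 and 2 taken singly, the 8 members had the direction of the full comparison, as did 100% of the 5362 called genes with values there, so this tells nothing about the members.

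Other genes that regulate vessel growth moved in both directions. Of 25 tested, 8 were higher and 7 lower, against 13.9% and 9.96% of all names. The median difference of the list was 0.06. Among the genes called, the largest increases were in Thbs1 (3.22) and Thbs2 (2.44), the thrombospondins that restrain vessel growth, and in the chemokine receptor Cxcr4 (2.51). The largest decreases among those called were in Adamts1 (-1.72), a protease, in Adm (-1.05), the adrenomedullin ligand of Calcrl and Ramp2, and in Egln1 (-0.96), the oxygen-sensing hydroxylase. Of 14 genes induced by hypoxia, 1 was higher (Pfkfb4, 2.07) and 2 were lower (Bnip3, -1.57, and Pfkfb3, -0.69), with a median difference of -0.11.

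Of the 5 lymphatic genes, 1 was higher, 3 did not pass and 1 was not tested. Prox1, the factor that defines lymphatic endothelium, was above background on 1 sham and 3 PPE arrays and was not tested. Its values were 0.59, 0.22, 0.16, 0.16 and 0.31 on the sham arrays and 1.53, 1.49, 0.56, 0.47 and -0.07 on the PPE arrays, with PPE 1 and PPE 2, the arrays of slide 1, highest.

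Flt4, the receptor for Vegfc and Vegfd, measured 0.65, 0.11, 0.16, 0.41 and 0.37 on the sham arrays and 1.31, 1.26, 0.54, 0.55 and 0.49 on the PPE arrays. Sham 1 lay above 3 of the PPE arrays, and PPE 1 and PPE 2 were again highest. The probe was above background on 3 sham and 5 PPE arrays. The difference of 0.49 (SE 0.19, adjusted p = 0.071) did not pass, except with slide as a fixed block (0.50, adjusted p = 0.00714).

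Lyve1, a hyaluronan receptor of lymphatic endothelium and of some resident macrophages, measured 4.59, 4.03, 3.41, 4.73 and 3.88 on the sham arrays and 4.92, 5.02, 3.89, 4.06 and 3.86 on the PPE arrays. The ranges overlapped, with PPE 1 and PPE 2 above every sham array and the other 3 PPE arrays within the sham range. The difference was 0.22 (SE 0.31, adjusted p = 0.628), with an interval of -0.45 to 0.89. Mmrn1, a multimerin of lymphatic endothelium and platelets, differed by 0.56 (SE 0.35, adjusted p = 0.251), and by -0.52 with the LogRatio.

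Pdpn, the mucin-like protein podoplanin, was the lymphatic gene that passed. It is present on lymphatic endothelium but also on fibroblasts, mesothelium and activated macrophages. It measured -1.81, -1.70, -1.57, -1.33 and -1.09 on the sham arrays and 0.82, 1.03, 1.24, 0.75 and 0.94 on the PPE arrays. The groups did not overlap, with 1.84 between their nearest arrays, and sham 1 was the lowest sham array. The difference was 2.46 (SE 0.15, adjusted p = 8.98e-07), or 5.49-fold, the lowest adjusted p among the members. A second, dimmer probe gave 1.55 (adjusted p = 6.49e-04 over all probes).

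Of 11 further lymphatic genes tested, 2 were higher and 2 lower, against 13.9% and 9.96% of all names. The median difference of the list was -0.03. Those higher were the transcription factor Maf (1.53), which macrophages also make, and Ccbe1 (1.28), which helps to activate Vegfc. Those lower were Nr2f2 (-0.79), the vein and lymphatic factor that acts before Prox1, and the gap junction gene Gja1 (-0.57).

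Cell types other than endothelium are known to make Pdpn, Nrp2 and Fli1, and some markers of these cell types rose while others did not pass. Among all names tested, 13.9% were higher. Of 12 macrophage genes, 6 were higher and none lower, led by Emr1 (3.42), Cd14 (3.30) and Cd68 (2.34), and the mean of the list was 1.78 to 2.16 on the sham arrays and 2.89 to 4.17 on the PPE arrays. Of 7 fibroblast genes, 5 were higher and none lower, led by Col1a1 (2.04), Col3a1 (1.95) and Thy1 (1.38), with means of 2.28 to 2.72 in sham and 3.25 to 4.18 in PPE. Of 6 mesothelial genes tested, Wt1 (2.54) was higher and the others did not pass. All 7 fibroblast genes and 11 of the 12 macrophage genes were above background on all arrays, and 3 of the mesothelial genes were. Their part in the Pdpn, Nrp2 and Fli1 values was not tested.

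Mmrn1, Vwf and Tal1 are shared with platelets or blood cell precursors, whose markers were followed for that reason. By limma 0 of 8 platelet genes passed, with a median difference of -0.17, and at an unadjusted p under 0.05 1 gene was higher and 0 were lower. Of 5 erythroid genes tested, 2 were lower, Alas2 (-1.78) and Hba-a1 (-1.15), against 9.96% of all names. Of 6 pericyte genes, Cspg4 was lower (-2.22) and none was higher.

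Probes for the same gene did not always give the same size of difference. Of 9 members with more than 1 tested probe, the probes of 8 fell on the same side of the threshold and those of Vegfa did not. A dimmer Kdr probe gave 1.02 (SE 0.39, adjusted p = 0.0677 over all probes) where the probe used gave 0.10, and a dimmer Vwf probe gave 0.56 (SE 0.20, adjusted p = 0.0552) where the probe used gave -0.22. The latter probes lie at chr6:125542106-125542165 and chr6:125636551-125636610 on mm9. Whether these probes read the same transcripts was not analysed here.

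**Figure D5:**
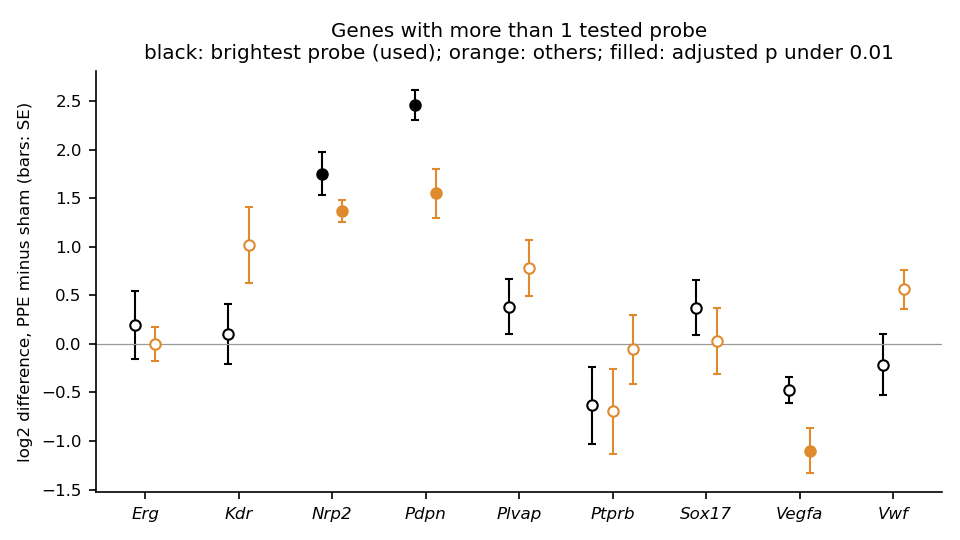
Difference between PPE and sham on the log2 scale (vertical axis, bars are standard errors) for each probe of the 9 members with more than 1 tested probe, black for the brightest probe and orange for the others, filled where the adjusted p was under 0.01. Both probes of Nrp2 and of Pdpn are filled, 1 of the 2 Vegfa probes is, and the Vwf probes lie on opposite sides of 0.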

How the data were processed

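Gene expression was measured on 10 Agilent 8x60K arrays, 5 sham and 5 PPE, with aortic RNA in red and a universal reference in green on each, and no dye swap. Per the study's methods, some arrays with poor hybridization were left out of the analysis and outliers were removed by clustering. Spots were read by the authors in Agilent Feature Extraction (version 10.7.3.1). Signal and local background of each spot were deposited as linear intensity values. The LogRatio, also deposited, is log10 of the red over green ratio, and the authors' series matrix holds log2 ratios, which equalled log2 of the processed red over green signals on 100% of spots within 0.0001. Both were used as alternatives.

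In R 4.3.3 with limma 3.58.1, mean signals were corrected by normexp (offset 50) and normalized by loess within each array, without normalization between arrays. With this offset, log ratios of dim probes shrink towards 0. Control and outlier spots were left out and spots of 1 probe averaged. Probes entered the test where red signal clearly exceeded background on 5 or more of the 10 arrays, and a gene was represented by its tested probe of highest mean brightness. Groups were compared, two-sided and unpaired, by limma (lmFit, eBayes) over all 22520 names, with Benjamini-Hochberg adjustment over all of them and a threshold of 0.01. The study used SAM, which was not run here. The fit was tested on simulated data with independent noise on each array. These data held no slide differences, so they do not show how the fit handles them. Intervals are 95% limits of the same fit. The number of arrays limits the precision.

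The members and the 12 further lists were chosen with earlier results of these data known. All members may be named. Values on every array are given for members past the threshold with a difference of at least 1 and for 11 core genes, and Ecscr and Apln were added after their values were seen. From each further list, up to 3 called genes in each direction are named. Promoters come from RefSeq (GRCm38.p6) and probe positions, on mm9, from the files. Alternatives were other background and scaling settings, probe filters, probe averages, replicate number or slide as a block, and leaving out each array. Leaving out slide 1, slide 1 as a block and ratios relative to the pan-endothelial mean were added after seeing the data.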

Additional observations from a re-analysis of the deposited data

Results flagged for a closer look

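Over 42 members and both groups, 84 sets of 5 values were examined for a sample far from the others, and 3 had one, where chance gives about 5%. Kdr on PPE 5 measured 1.21, against -0.08 on the next PPE array, and this gap made up 0.787 of the range of the PPE arrays. Without PPE 5 the Kdr difference was -0.19. Ramp2 on sham 3 measured 3.55, against 4.28 on the next sham array, a gap of 0.890 of the range. Nrp2 on PPE 5 measured -0.35, against 0.39 on the next PPE array, a gap of 0.806 of the range, and without PPE 5 the Nrp2 difference was 1.92.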

How the results depend on the processing

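Against 7 members called higher and 1 lower, the numbers called, not always the same genes, were 1 and 0 with median centring in place of loess, 4 and 2 with the LogRatio, 4 and 2 with the series matrix (Vegfa being the second lower gene in both), 3 and 1 without the arrays of slide 1, and 4 and 1 relative to the pan-endothelial mean. The mean of tested probes and slide as a fixed block each gave 2 lower members, with 7 and 10 higher. Leaving out 1 array at a time gave 4 to 7 higher and 1 to 2 lower members, with 4 higher without sham 2, sham 3, sham 4 or PPE 1, and 2 lower without sham 5. With the replicate number as a block, 7 members were higher and 1 lower, with Cdh5 gained (adjusted p = 0.00577) and Apln lost (adjusted p = 0.0167). Same-numbered arrays deviated together in 3 of 5 numbers (correlations across genes from -0.30 to 0.52). Sham 1 and PPE 1 shared slide 1, and sham 3 and PPE 3 shared slide 2. Sham 5 and PPE 5, with the highest correlation (0.52), were on different slides. The labels give no pairing beyond the number, and none was assumed.

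Over 23 alternatives, 963 values of single members were compared, of which 907 stayed on their side of the threshold, 44 fell short of it, 12 passed it and 0 turned a called direction. Among the alternatives, quantile scaling of brightness between arrays leaves log ratios unchanged, so its 42 values could not move. The LogRatio and the series matrix hold nearly the same ratios but were counted as separate alternatives, so these counts overstate how much was varied. Pdpn was called in all 23. Vegfb, Nrp2 and Fli1 missed it only with median centring, where their differences less the median of all names (0.41) were -1.01, 1.95 and 1.39. Vegfa passed with the LogRatio, the series matrix, the mean of probes (-0.79) and without sham 5. Under median centring, 9 members that had not passed changed sign. All genes called numbered 3122 higher and 2244 lower, against 408 and 8 with median centring and 1286 and 2011 relative to the pan-endothelial mean. The causes were not tested. Prox1 and Calcrl were close to background, and Flt4 was above it on only 3 sham arrays, which limits what can be said of them.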
